A study of Homo sapiens with 24 samples.

Results

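The comparison described here is the change in transcript level over the first hour of actinomycin D in METTL14 knockdown cells minus the same change in control cells. It rests on 8 of the 24 libraries of the series, 2 for each line at 0 and 1 h, chosen by their labels alone. HepG2, an established human hepatocellular carcinoma line, was infected with lentivirus carrying an shRNA, and the stably expressing cells were selected with puromycin at 1 µg/mL. All groups share the HepG2 background, the lentiviral vector and the puromycin selection. The shCtrl line carries a non-specific shRNA, the shMETTL14 line an shRNA against METTL14, and the shSETD2 line, used here for side-by-side values, an shRNA against SETD2. The libraries at 0 h came from untreated cells and those at 1 h from cells kept in actinomycin D at 5 µg/mL, with 3 and 6 h as later points. The labels name 1 line for each target and do not say whether the 2 libraries of a group came from separate cultures, so the p-values measure the spread between these libraries, which may be technical.

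METTL14 is the RNA-binding partner of METTL3 in the nuclear complex that writes N6-methyladenosine (m6A) on messenger RNA, and reader proteins that bind m6A can hasten or slow the decay of the marked transcript. SETD2 places the trimethyl mark on lysine 36 of histone H3. Actinomycin D blocks transcription, so afterwards the level of a transcript falls relative to the others if it decays faster than they do. Transcripts of immediate early genes are known for decaying within minutes to hours, which makes the first hour of a block the interval in which they move most.

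Levels are given in CPM, the counts of a gene brought to a common library total and scaled with TMM (trimmed mean of M values) factors, which removes differences in library size and composition. Values are compared within a gene and not between genes, because they are not divided by transcript length. The 8 libraries held 22120346 to 27667242 counts, and 3 counts, the limit that a count of 0 allows, corresponded to 0.108 to 0.136 CPM for counting error alone. Mitochondrially encoded transcripts took 6.89% to 7.50% of the counts. All 8 hepatocyte markers reached 1 CPM, with a summed level of 56258 to 56342 CPM (not TMM-scaled) in shCtrl and 67162 to 67228 CPM in shMETTL14 at 0 h. Of the blood and immune markers 3 of 8 reached 1 CPM, nearly all of it LYZ at 1200 to 2766 CPM, and PTPRC, CD68, CD3E and HBB were among those below. None of the 4 endothelial markers reached 1 CPM, nor did DCN, LUM, THY1, COL1A2 and COL3A1 among the 7 fibroblast markers, of which 2 did, at a sum of 15.1 to 17.4 CPM in shCtrl and 34.0 to 43.4 CPM in shMETTL14. LIN28B was the 1 of 5 HEK293T markers above 1 CPM, at a sum of 152 to 166 CPM in shCtrl and 89.1 to 126 CPM in shMETTL14. The part of these marker differences in the results was not tested. The labels describe an ERCC spike-in, but the table holds 0 entries with an ERCC name, so all changes are relative to the other transcripts and not per cell.

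The targeted gene was low in the knockdown line at both times. METTL14 (chr4:119606523-119636588, plus strand, GRCh37) stood at 29.3 and 30.04 CPM in shCtrl at 0 h and at 15.01 and 13.9 CPM in shMETTL14. After 1 h of actinomycin D it was at 24.4 and 24.5 CPM in shCtrl and at 6.44 and 7.71 CPM in shMETTL14. The shMETTL14 libraries lay below the shCtrl libraries at both times without overlap, and the fitted log2 difference was -1.03 at 0 h and -1.79 at 1 h (edgeR adjusted p = 1.26e-08 and 8.47e-12). The gene was also among those whose first-hour change differed, with 82.4% of its level left after 1 h in shCtrl and 48.9% in shMETTL14 (difference -0.75 ± 0.15 log2, SE; adjusted p = 0.0485). SETD2, the target of the other knockdown, kept 78.2% in shCtrl and 85.4% in shMETTL14, a difference of 0.13 ± 0.09 log2 that did not pass (adjusted p = 0.757).

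**Figure D1:**
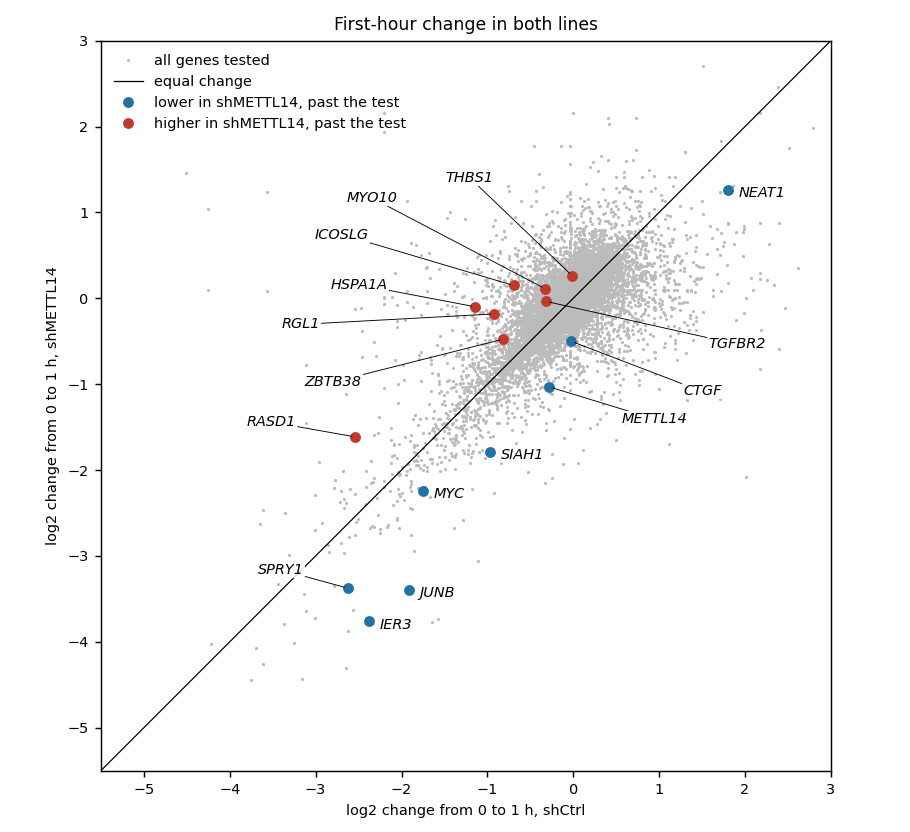
Fitted log2 change from 0 to 1 h of actinomycin D in shCtrl (horizontal axis) against that in shMETTL14 (vertical axis) for the 14887 genes tested, with the line of equal change; 10 genes lie outside the axes. The 8 genes past the test with a lower change in shMETTL14 (blue) include the steeply falling IER3, JUNB and SPRY1, and the 8 with a higher change (red) lie near no change in shMETTL14, apart from RASD1 and ZBTB38.

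Of 14887 genes tested, 16 had a first-hour change that differed between shMETTL14 and shCtrl at an adjusted p under 0.05 (0.107% of those tested), 8 lower and 8 higher in shMETTL14 (0.0537% each). The lower genes were JUNB, IER3, SIAH1, METTL14, SPRY1, NEAT1, MYC and CTGF, and the higher genes HSPA1A, RASD1, ICOSLG, RGL1, MYO10, ZBTB38, TGFBR2 and THBS1. All 16 kept their sign in each of the 16 ways of taking 1 library from each of the 4 groups. Another 15 genes had an adjusted p between 0.05 and 0.1, and 1153 genes (7.75%) had an unadjusted p under 0.05, 850 of them higher and 303 lower. Without any 1 of the 8 libraries the count fell to between 2 and 6; IER3 and HSPA1A passed each time, and CTGF in all cases but those without shCtrl 0 h replicate 2 or shMETTL14 1 h replicate 2. A fit to the 8 libraries alone called 458 of 14481 genes (3.16%), all 16 among them, with 57 higher and 401 lower (0.394% and 2.77%). The same fit with the scaling factors of the 24-library fit, chosen after seeing the data, gave 359 with 290 higher and 69 lower, and scaling by library size alone gave 13, with 2 higher and 11 lower. DESeq2 called 46 of 11075 genes (0.415%), 32 higher and 14 lower (0.289% and 0.126%).

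**Figure D2:**
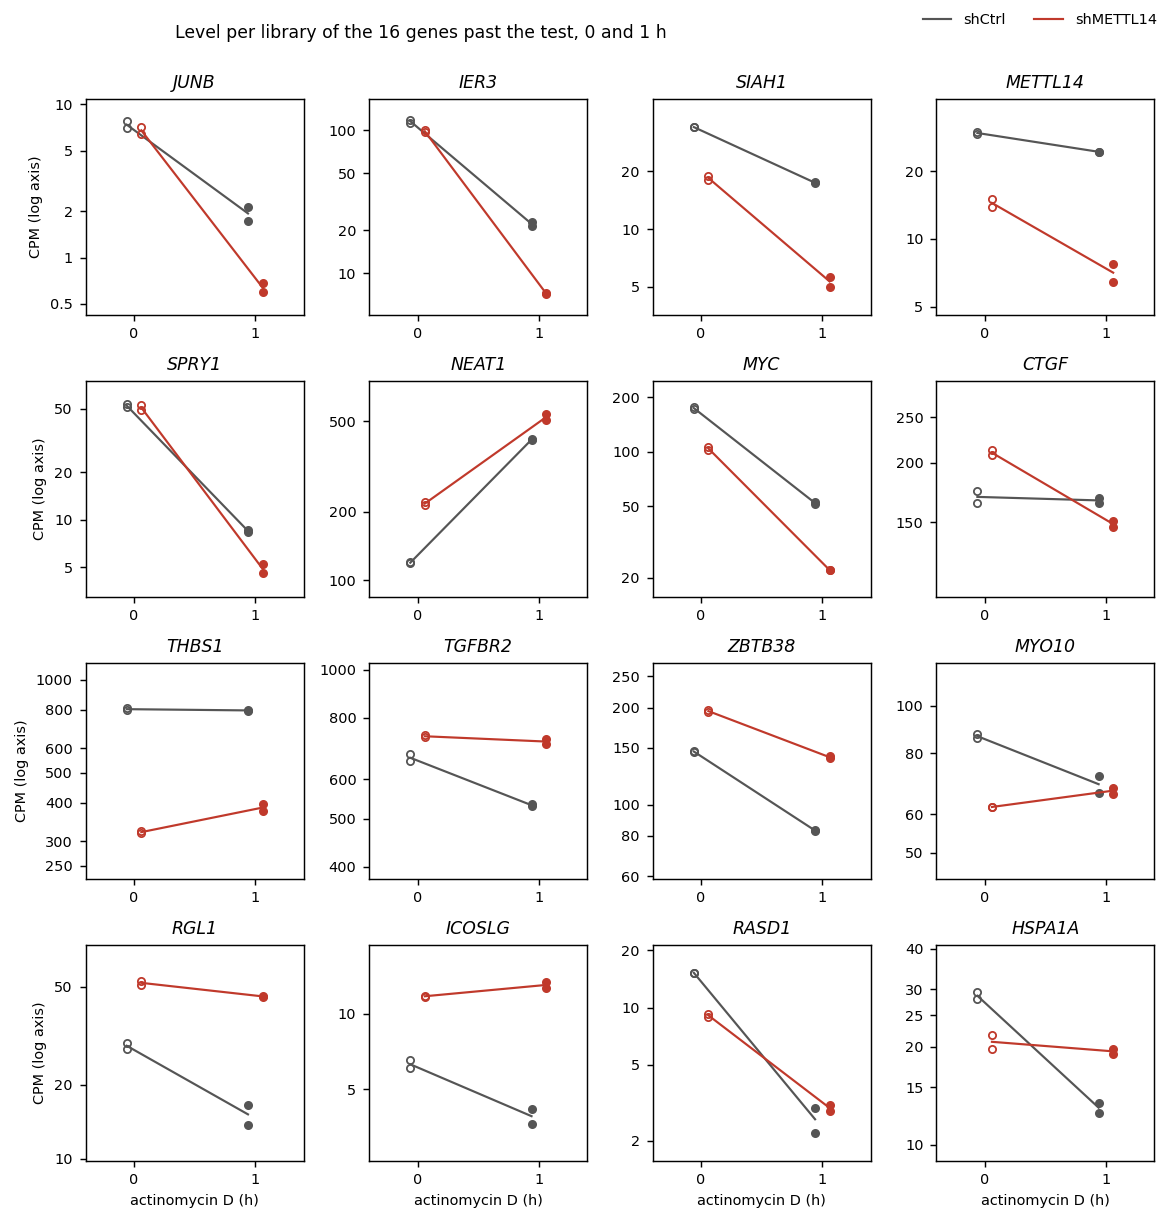
TMM-scaled CPM (log axes, scaled separately for each gene) in each of the 2 libraries per group for the 16 genes past the test, at 0 h (open) and 1 h (filled), with lines joining the group means. For JUNB and SPRY1 the lines start together at 0 h and part by 1 h, while for NEAT1 the shMETTL14 libraries lie above shCtrl at both times.

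Most of the 16 genes were falling transcripts. In shCtrl 13 fell past the test and NEAT1 rose, against 15.9% and 13.8% of all genes tested (29.7% in either direction). In shMETTL14 9 fell and 2, NEAT1 and THBS1, rose, against 16% and 23.1% of all genes (39.1% in either direction). With scaling by library size alone these splits over all genes became 1044 higher and 2937 lower in shCtrl and 1390 and 3537 in shMETTL14, from 2047 and 2374 and from 3439 and 2385. Of the 8 lower genes 6 fell in both lines, the exceptions being NEAT1 and CTGF. Of the 8 higher genes 7 fell in shCtrl, and of these RASD1 and ZBTB38 also fell in shMETTL14. The same libraries entered the difference, so these counts describe it and do not support it.

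For 4 of the 16 genes, those that kept the least of their level in shCtrl, the occurrences of GGACT, a common form of the sequence in which the m6A complex methylates adenosine, in the 3′UTRs of IER3, JUNB, SPRY1 and RASD1 are given here with 10 bases on each side, from GENCODE 29 transcripts on GRCh38, 5′ to 3′ on the transcribed strand. The capitals mark GGACT, and whether any of these adenosines is methylated in these cells was not measured in the files used here.
IER3, chr6:30743832-30743856, minus strand: tccccaactgGGACTtccgaggcaa
IER3, chr6:30743523-30743547, minus strand: gagctttgtgGGACTggtggaagca
IER3, chr6:30743467-30743491, minus strand: gaaatggggaGGACTcgggtggggg
JUNB, chr19:12792929-12792953, plus strand: aaaccacactGGACTccggccctcc
SPRY1, chr4:123402722-123402746, plus strand: cagcaagagtGGACTgggaagctgc
SPRY1, chr4:123403256-123403280, plus strand: tatttgtgaaGGACTcagccacctt
RASD1, chr17:17495018-17495042, minus strand: gagcgcgcgcGGACTggcgtctccc
RASD1, chr17:17494909-17494933, minus strand: gccaagactgGGACTattccccacc

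IER3, an immediate early gene whose product acts in stress and survival signalling, had the smallest adjusted p of the lower genes. It lies at chr6:30710976-30712331 on the minus strand (GRCh37). Its level at 0 h was 113 and 118 CPM in shCtrl and 99.6 and 96.7 CPM in shMETTL14. After 1 h it was 22.8 and 21.4 CPM in shCtrl and 7.20 and 7.26 CPM in shMETTL14. The shMETTL14 libraries were below shCtrl at both times without overlap, with log2 differences of -0.23 at 0 h and -1.61 at 1 h. The share left after 1 h was 19.2% in shCtrl and 7.37% in shMETTL14, a difference of -1.38 ± 0.12 log2 (SE; adjusted p = 6.89e-07). Over the 16 choices of libraries the difference ran from -1.47 to -1.27.

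JUNB (chr19:12902310-12904124, plus strand, GRCh37), a subunit of the AP-1 transcription factor, showed the largest estimate. Its 0 h levels were 6.996 and 7.76 CPM in shCtrl and 6.46 and 7.09 CPM in shMETTL14, which overlap. At 1 h it was at 1.73 and 2.15 CPM in shCtrl and at 0.680 and 0.593 CPM in shMETTL14, the latter resting on 19 and 17 counts. The groups thus separated only after the block. The share left was 26.5% in shCtrl and 9.47% in shMETTL14, a difference of -1.48 ± 0.30 log2 (SE; adjusted p = 0.0485), with a range of -1.72 to -0.97 over the choices of libraries. JUNB overlaps HOOK2 on the other strand, and HOOK2 itself differed by 0.30 ± 0.20 log2 (adjusted p = 0.739).

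SPRY1 (chr4:124317950-124324910, plus strand, GRCh37) encodes a feedback inhibitor of receptor tyrosine kinase signalling to ERK. At 0 h it stood at 53.7 and 51.3 CPM in shCtrl and at 49.2 and 52.9 CPM in shMETTL14. After 1 h it stood at 8.38 and 8.61 CPM in shCtrl and at 4.58 and 5.23 CPM in shMETTL14. The 0 h levels overlapped and the 1 h levels did not. It kept 16.2% in shCtrl and 9.63% in shMETTL14, a difference of -0.75 ± 0.15 log2 (SE; adjusted p = 0.0485).

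MYC (chr8:128747680-128753674, plus strand, GRCh37), the transcription factor that drives growth and ribosome synthesis, started from a lower level in the knockdown line. It was at 176 and 173 CPM in shCtrl and 106 and 102 CPM in shMETTL14 at 0 h. After 1 h it was at 52.5 and 51.4 CPM in shCtrl and at 22.1 CPM in both shMETTL14 libraries. The groups were apart at both times, with shMETTL14 lower. The share left was 29.8% in shCtrl and 21.2% in shMETTL14 (difference -0.49 ± 0.09 log2, SE; adjusted p = 0.0438).

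SIAH1 (chr16:48390275-48482313, minus strand, GRCh37) encodes a RING-type ubiquitin ligase. Its libraries read 34.1 and 34.0 CPM in shCtrl and 18.1 and 18.8 CPM in shMETTL14 at 0 h. At 1 h they read 17.5 and 17.3 CPM in shCtrl and 5.01 and 5.65 CPM in shMETTL14. The shMETTL14 libraries were lower at both times without overlap, and the share left was 51.2% in shCtrl and 28.9% in shMETTL14 (difference -0.83 ± 0.13 log2, SE; adjusted p = 0.00978). SIAH1 overlaps LONP2 on the other strand, which had a mean of 122 CPM over the 24 libraries against 13.1 CPM for SIAH1, and LONP2 differed by -0.03 ± 0.07 log2 (adjusted p = 0.917). Neither labels nor headers say whether strand was used in counting, so reads in the overlap may belong to either gene.

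CTGF (chr6:132269316-132272513, minus strand, GRCh37), also named CCN2, encodes a secreted matrix protein induced by YAP and TGF-beta. It was at 175 and 164 CPM in shCtrl and at 208 and 213 CPM in shMETTL14 at 0 h. At 1 h it was at 165 and 169 CPM in shCtrl and at 151 and 146 CPM in shMETTL14. The knockdown libraries were thus above shCtrl at 0 h and below it at 1 h, while the shCtrl libraries of the 2 times overlapped. The share left was 98.3% in shCtrl, a log2 change of -0.02 that did not pass the test (adjusted p = 0.757), and 70.7% in shMETTL14, and the difference was -0.48 ± 0.07 log2 (SE; adjusted p = 0.00323). Its adjusted p reached 0.0633 at most with a library left out.

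NEAT1 (chr11:65190245-65213011, plus strand, GRCh37) is the long noncoding RNA around which nuclear paraspeckles form, and its level rose during the block in both lines. It read 119 and 120 CPM in shCtrl and 221 and 214 CPM in shMETTL14 at 0 h. At 1 h it read 411 and 418 CPM in shCtrl and 537 and 505 CPM in shMETTL14. The shMETTL14 libraries were above shCtrl at both times, and the relative rise was smaller there, to 240% of the 0 h level against 348% in shCtrl (difference -0.53 ± 0.09 log2, SE; adjusted p = 0.0132). A lower difference for NEAT1 is therefore a weaker rise and not a fall.

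HSPA1A (chr6:31783291-31785723, plus strand, GRCh37), the inducible HSP70 chaperone, had the smallest adjusted p of the genes with a higher change. It was at 29.4 and 28.0 CPM in shCtrl and at 21.7 and 19.7 CPM in shMETTL14 at 0 h. After 1 h it was at 12.5 and 13.5 CPM in shCtrl and at 19.7 and 19.01 CPM in shMETTL14. The order of the lines was reversed between 0 and 1 h without overlap at either time. The share left was 45.4% in shCtrl and 93.4% in shMETTL14, where the change did not pass the test (adjusted p = 0.349). The difference was 1.04 ± 0.11 log2 (SE; adjusted p = 4.53e-05), and 0.86 to 1.22 over the choices of libraries. HSPA1B, the near-identical neighbouring copy, named after its values were seen, differed by 0.52 ± 0.11 log2 without passing (adjusted p = 0.0632). How reads that match both copies were counted is not stated, so the value of each is uncertain.

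RASD1 (chr17:17397751-17399709, minus strand, GRCh37), a Ras-like GTPase gene inducible by dexamethasone, was the steepest faller among the higher genes. It stood at 15.2 CPM in both shCtrl libraries and at 9.30 and 8.89 CPM in shMETTL14 at 0 h. After 1 h it stood at 2.20 and 2.98 CPM in shCtrl and at 3.08 and 2.86 CPM in shMETTL14. The lines were apart at 0 h and overlapped at 1 h, and the share left was 17.2% in shCtrl and 32.7% in shMETTL14 (difference 0.92 ± 0.17 log2, SE; adjusted p = 0.033). From 1 to 3 h the difference was negative instead, at -2.13 log2, as described with the later interval.

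ICOSLG and RGL1 fell in shCtrl and had changes in shMETTL14 that did not pass the test. ICOSLG (chr21:45642874-45660849, minus strand, GRCh37), the ligand of the T cell costimulator ICOS, went from 6.05 and 6.52 to 4.17 and 3.64 CPM in shCtrl and from 11.8 and 11.6 to 12.6 and 13.4 CPM in shMETTL14. The share left was 61.8% against 111%, a difference of 0.84 ± 0.16 log2 (SE; adjusted p = 0.033). RGL1 (chr1:183605220-183897665, plus strand, GRCh37), a guanine nucleotide exchange factor for Ral GTPases, went from 29.5 and 28.0 to 13.8 and 16.5 CPM in shCtrl and from 50.8 and 52.7 to 45.3 and 46.0 CPM in shMETTL14. It kept 52.9% in shCtrl and 88.1% in shMETTL14 (difference 0.74 ± 0.12 log2, SE; adjusted p = 0.00978). For both genes the shMETTL14 libraries were above shCtrl at 0 and at 1 h without overlap.

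The other 4 higher genes had differences under 0.5 log2. MYO10 (chr5:16665395-16936372, minus strand, GRCh37), an unconventional myosin of filopodia, went from 87.5 and 85.9 to 66.3 and 72.0 CPM in shCtrl and from 62.2 and 62.04 to 66.2 and 68.0 CPM in shMETTL14, so that lines apart at 0 h overlapped at 1 h (difference 0.44 ± 0.08 log2, SE; adjusted p = 0.0224). ZBTB38 (chr3:141043055-141168634, plus strand, GRCh37), a zinc finger protein that binds methylated DNA, went from 146 CPM in both libraries to 82.5 and 83.6 CPM in shCtrl and from 194 and 197 to 141 and 139 CPM in shMETTL14, which was higher at both times (0.34 ± 0.06 log2; adjusted p = 0.033). TGFBR2 (chr3:30647994-30735634, plus strand, GRCh37), the type II TGF-beta receptor, went from 675 and 653 to 529 and 535 CPM in shCtrl and from 737 and 730 to 708 and 723 CPM in shMETTL14. Its difference was 0.28 ± 0.05 log2 (SE; adjusted p = 0.033), with shMETTL14 above shCtrl throughout. THBS1 (chr15:39873280-39891667, plus strand, GRCh37), the secreted matrix glycoprotein thrombospondin, was at 808 and 796 CPM at 0 h and 792 and 797 CPM at 1 h in shCtrl, and at 318 and 324 and then 396 and 374 CPM in shMETTL14. It was the only one of the 8 with no fall past the test in shCtrl, it rose in shMETTL14 (log2 0.26, adjusted p = 1.52e-05), and the difference was 0.28 ± 0.05 log2 (SE; adjusted p = 0.0485).

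The level before the block differed between the lines for 14 of the 16 genes, all but JUNB and SPRY1, against 48.1% of all genes tested at 0 h (23.1% higher and 25.1% lower in shMETTL14). At 1 h 14 differed, all but MYO10 and RASD1, against 48.5% of all genes (25.9% higher and 22.6% lower in shMETTL14). Of the higher genes 4 started higher in shMETTL14 (ICOSLG, RGL1, ZBTB38 and TGFBR2) and 4 lower. Of the lower genes IER3, SIAH1, METTL14 and MYC started lower in shMETTL14, and NEAT1 and CTGF started higher. A difference in the 0 h level enters the first-hour change, so the 2 measures are not independent.

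**Figure D3:**
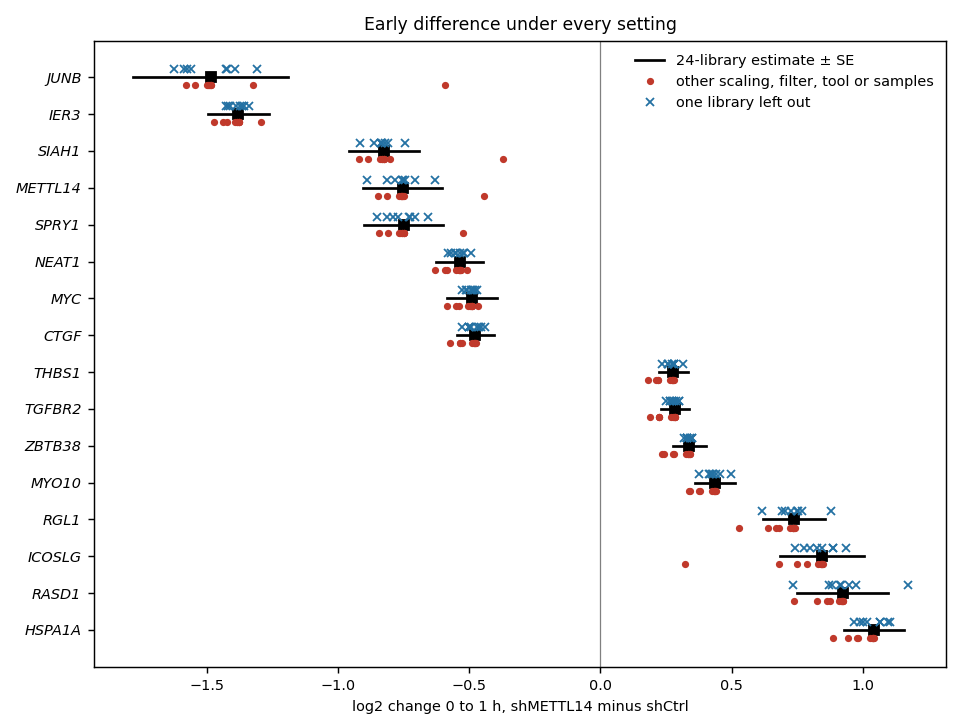
Difference of the first-hour change (log2, shMETTL14 minus shCtrl) for each of the 16 genes: the 24-library estimate with its SE (black), the 10 settings with another scaling, filter, tool or choice of samples (red), and the 8 fits with 1 library left out (blue). No estimate crosses 0, and those of IER3 run from -1.47 to -1.29; the smallest for JUNB (-0.59), SIAH1 (-0.37) and ICOSLG (0.32) lie far from their main values.

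IER3 and HSPA1A passed the test under all 18 other settings tried. CTGF passed under 16 and NEAT1 under 11. The other 12 passed under 5 (THBS1) to 9 (RGL1) of the 18, and most of the losses came with a library left out. JUNB, MYC, METTL14, SIAH1, SPRY1, ICOSLG, ZBTB38, TGFBR2 and THBS1 lost the call whichever library was left out, with an adjusted p of up to 0.506 for METTL14. No estimate of these 9 genes changed sign under the 18 settings.

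Among the gene lists, genes past the test were few and spread over 6 of the 34. The lists and their members were chosen with earlier results of these data known. Their counts beside the shares of all genes are therefore descriptive and do not support a result about any list. The immediate early and AP-1 list held 3 of 24 tested members, IER3, CTGF and JUNB, all lower (0.0537% of all genes were called lower). Its median difference was -0.03 log2, against 0.04 for all genes tested. In shCtrl 19 of the 24 fell in the first hour, and 17 in shMETTL14; none rose past the test in either line. Of all genes 15.9% fell and 13.8% rose in shCtrl, and 16% fell and 23.1% rose in shMETTL14. Of the 24, 12 had an unadjusted p under 0.05, 7 lower and 5 higher (7.75% of all genes, 2.04% lower and 5.71% higher). DESeq2 called the same 3 (0.126% of the genes it tested were called lower). The 8-library fit called 7, all lower, adding BHLHE40, FOSL2, KLF6 and RHOB. That fit called 2.77% of all its genes lower and 0.394% higher. The members best known as AP-1 partners and early response factors, named after their values were seen, did not pass: FOS differed by -0.03 ± 0.39 log2, JUN by 0.40 ± 0.14 and EGR1 by 0.34 ± 0.16 (adjusted p = 0.989, 0.504 and 0.642). BHLHE40, a repressor of the circadian clock and of early response genes, kept 44.6% in shCtrl and 29.1% in shMETTL14 and did not pass (-0.62 ± 0.14 log2, adjusted p = 0.109).

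SPRY1 was the 1 of 17 ERK feedback genes past the test (0.107% of all genes were called), and the list's median was -0.04 log2. Neither limma setting called any of the 17. The 8-library fit called 3, all lower, against 2.77% of all genes called lower in that fit. Its family members SPRY2 and SPRY4, named after their values were seen, differed by -0.17 ± 0.22 and 0.01 ± 0.11 log2 (adjusted p = 0.879 and 0.979). Of this list 13 fell in shCtrl and 12 in shMETTL14, against 15.9% and 16% of all genes. MYC was the 1 of 12 past the test in the MYC and MAX network (again 0.107% of all genes). There limma called 0 and the 8-library fit 2, both lower (2.77% of all genes in that fit). That network's median difference was 0.03 log2, below 0 with scaling by library size (-0.03) and in the 8-library fit (-0.07). The median of all genes moved alike, from 0.04 to -0.02 and -0.05. Relative to it the network stood at -0.01 log2 under each setting. NEAT1 was the 1 of 14 nuclear and other noncoding RNAs past the test (0.107% of all genes). It was called by limma as well, and the 8-library fit called 4, all lower (2.77% of all genes in that fit). MALAT1, its neighbour in the genome and also a nuclear RNA, differed by -0.13 ± 0.18 log2 and did not pass (adjusted p = 0.875). The 8-library fit did call MALAT1 lower, among its 4 genes of this list with KCNQ1OT1, NEAT1 and TUG1.

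In the m6A writer complex METTL14 was the only 1 of 9 tested members past the test, against 0.107% of all genes. It is the transcript that the shRNA targets, so its call does not speak for the other members. Of the 9, limma called 0. METTL3, the catalytic subunit, differed by 0.14 ± 0.07 log2 and WTAP, the adaptor that holds the complex in nuclear speckles, by 0.01 ± 0.12 log2 (adjusted p = 0.663 and 0.982). None of 14 readers and erasers passed in edgeR, and 0 in DESeq2 or limma. The 8-library fit called HNRNPA2B1 lower, against 2.77% of all genes called lower in that fit. The 1 with an unadjusted p under 0.05 was the demethylase ALKBH5 (0.23 ± 0.10 log2, adjusted p = 0.602). Among 13 transcripts named as m6A targets in earlier work 3 passed, HSPA1A upward and MYC and JUNB downward, against 0.107% of all genes. The list's median was 0.05 log2 (-0.04 in the 8-library fit). In both fits it was 0.01 log2 above the median of all genes. Of the 13 transcripts limma called HSPA1A alone. The 8-library fit added MDM2, for 3 lower and 1 higher, against 2.77% and 0.394% of all genes in that fit.

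The lists of secreted hepatocyte proteins and of liver transcription factors held 0 genes past the edgeR test, and 0 in DESeq2 or limma. Of 28 secreted hepatocyte proteins, 17 rose in shCtrl and 25 in shMETTL14 over the first hour, against 13.8% and 23.1% of all genes. Their median difference was 0.16 log2 (0.06 to 0.16 across scalings, filters and the 8-library fit), with 2 below 0. Relative to the median of all genes it was 0.11 to 0.12 log2 under the same settings. At an unadjusted p under 0.05, 11 were higher and 0 lower, against 5.71% and 2.04% of all genes. FGA, the fibrinogen alpha chain, went from 959 and 968 to 1094 and 1077 CPM in shCtrl and from 1929 and 1908 to 2462 and 2397 CPM in shMETTL14. Its difference of 0.17 ± 0.05 log2 did not pass (adjusted p = 0.32). Of 27 liver transcription factors 19 fell in shCtrl and 16 in shMETTL14, against 15.9% and 16% of all genes. The median difference was 0.12 log2 (0.02 to 0.12), and 0.07 log2 above the median of all genes under each setting. At an unadjusted p under 0.05, 4 were higher and 0 lower, against the same 5.71% and 2.04%. NR2F2, an orphan nuclear receptor, kept 45.7% in shCtrl and 62.2% in shMETTL14 (0.45 ± 0.11 log2, adjusted p = 0.11); it passed with the replicate block. The 8-library fit called 3 of the list, NR2F2, GATA4 and PROX1. Of these 2 were higher and 1 lower, against 0.394% and 2.77% of all genes in that fit.

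Several other genes, each with the smallest p in its list, had differences that did not pass. For all genes tested the 5th to 95th percentile of the difference ran from -0.54 to 0.51 log2. ZFP36, which encodes the protein that binds AU-rich elements and recruits the deadenylase, was at 9.37 and 8.69 CPM and then 1.14 and 0.894 CPM in shCtrl, and at 7.99 and 9.07 and then 0.501 and 0.279 CPM in shMETTL14. The last 2 values rest on 14 and 8 counts, and the difference was -1.28 ± 0.34 log2 (adjusted p = 0.222). DDIT4, a stress-induced inhibitor of mTORC1, kept 27.1% in shCtrl and 14.8% in shMETTL14 (-0.87 ± 0.18 log2, adjusted p = 0.0554). NFKBIA, the inhibitor of NF-κB, kept 9.68% and 7.19% (-0.43 ± 0.12 log2, adjusted p = 0.226), and HMGCS1, of cholesterol synthesis, rose to 134% of its 0 h level in shCtrl and stood at 102% in shMETTL14 (-0.39 ± 0.09 log2, adjusted p = 0.109). CDKN1A, the p53 target and cell cycle inhibitor p21, kept 60.6% in shCtrl and 79.9% in shMETTL14 (0.40 ± 0.09 log2, adjusted p = 0.0658). ZNF254, a zinc finger gene, kept 58.8% and 27.4% (-1.10 ± 0.24 log2, adjusted p = 0.0673). It overlaps CTD-2017D11.1 on the same strand (means of 5.00 and 1.58 CPM over the 24 libraries), so reads there may belong to either. The 399 tested ZNF-named genes had a median difference of -0.03 log2 and 0 past the edgeR test, with 32 at an unadjusted p under 0.05 (7.75% of all genes). Of these genes limma called 0, and DESeq2 and the fit with the replicate block called ZNF254. The 8-library fit called 14 of 400, all lower, against 2.77% of all its genes called lower (401 in all). MKI67, a proliferation marker, had 0.27 ± 0.06 log2 (adjusted p = 0.106) and MT-CYB, the mitochondrially encoded cytochrome b, 0.27 ± 0.06 log2 (adjusted p = 0.0632). DESeq2 called DDIT4, HMGCS1 and ZNF254 lower and CDKN1A, MKI67 and MT-CYB higher, 6 listed genes beyond those called in edgeR. Of all genes it tested, DESeq2 called 0.126% lower and 0.289% higher.

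How the difference varied with the speed of decay was read with classes taken from the shSETD2 line, whose libraries did not enter the difference. The 69 genes that fell by more than 2 log2 in the first hour in shSETD2 had a median difference of -0.26 log2 between shMETTL14 and shCtrl. Of these 69, 47 (68.1%) were below 0, against 6051 of all 14887 genes tested. For the 410 that fell by 1 to 2 log2 the median was -0.07, for the 1120 that fell by 0.5 to 1 it was 0.01, and for the 12436 within 0.5 it was 0.05. Relative to the median of all genes, the first class stood at -0.30 under the main scaling and at -0.30 to -0.32 under the other scalings, the stricter filter and the 8-library fit. Taking 1 library from each group, its median ran from -0.27 to -0.06. Its genes were lowly expressed, with a median highest group mean of 3.35 CPM and a median SE of 0.43 log2, and the median change of the class was -2.28 in shCtrl and -2.30 in shMETTL14, so the medians of the 2 lines differed far less than the median of the differences. The genes that passed in this class were 2 (2.90% of it), both lower. In the class that fell by 1 to 2, 3 were lower and 2 higher (1.22% of it). Of all genes tested 0.107% passed, 0.0537% lower and 0.0537% higher. The 173 genes that rose by more than 1 log2 in shSETD2, with a median highest group mean of 0.531 CPM, had a median of -0.13.

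**Figure D4:**
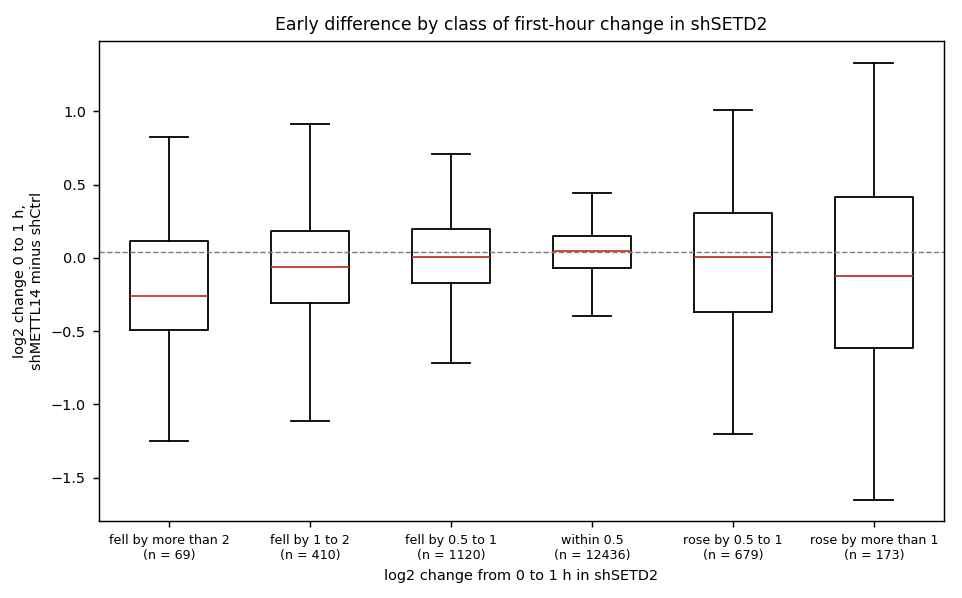
Difference of the first-hour change (log2, shMETTL14 minus shCtrl) by class of first-hour change in shSETD2; boxes span the quartiles with the median in red, whiskers the 5th to 95th percentile, and the dashed line is the median of all genes (0.04). The median is lowest, at -0.26, for the 69 genes that fell most and -0.13 for the 173 that rose most.

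Over the next interval, from 1 to 3 h, 52 genes (0.349%) had a change that differed between shMETTL14 and shCtrl, 5 higher and 47 lower (0.0336% and 0.316%); a fit to the 8 libraries of that interval gave 72 higher and 38 lower. This interval shares its 1 h libraries with the first hour, so a deviation at 1 h enters both with opposite sign, and the values are set side by side. CTGF, at -0.48 in the first hour, had -0.88 ± 0.07 log2 from 1 to 3 h (SE; adjusted p = 1.05e-07), and its level in shMETTL14 went on to 74.7 CPM at 3 h against 154 CPM in shCtrl. TGFBR2 had 0.28 and then 0.35 log2 (adjusted p = 0.00132), and MYO10 0.44 and then 0.55 log2 (adjusted p = 0.00098). RASD1 had 0.92 and then -2.13 log2 (adjusted p = 0.0087), with 0.225 CPM in shMETTL14 and 0.864 CPM in shCtrl at 3 h, the former resting on 7 and 5 counts. For IER3 the later difference was 0.02 log2 and for SPRY1 0.01 log2, neither of which passed. The distance between the lines that both genes showed at 1 h was nearly the same at 3 h, with IER3 at 9.03 CPM in shCtrl and 3.00 CPM in shMETTL14. SPRY1 changed little after 1 h, with means of 8.49 and then 7.27 CPM in shCtrl and 4.91 and then 4.24 CPM in shMETTL14.

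**Figure D5:**
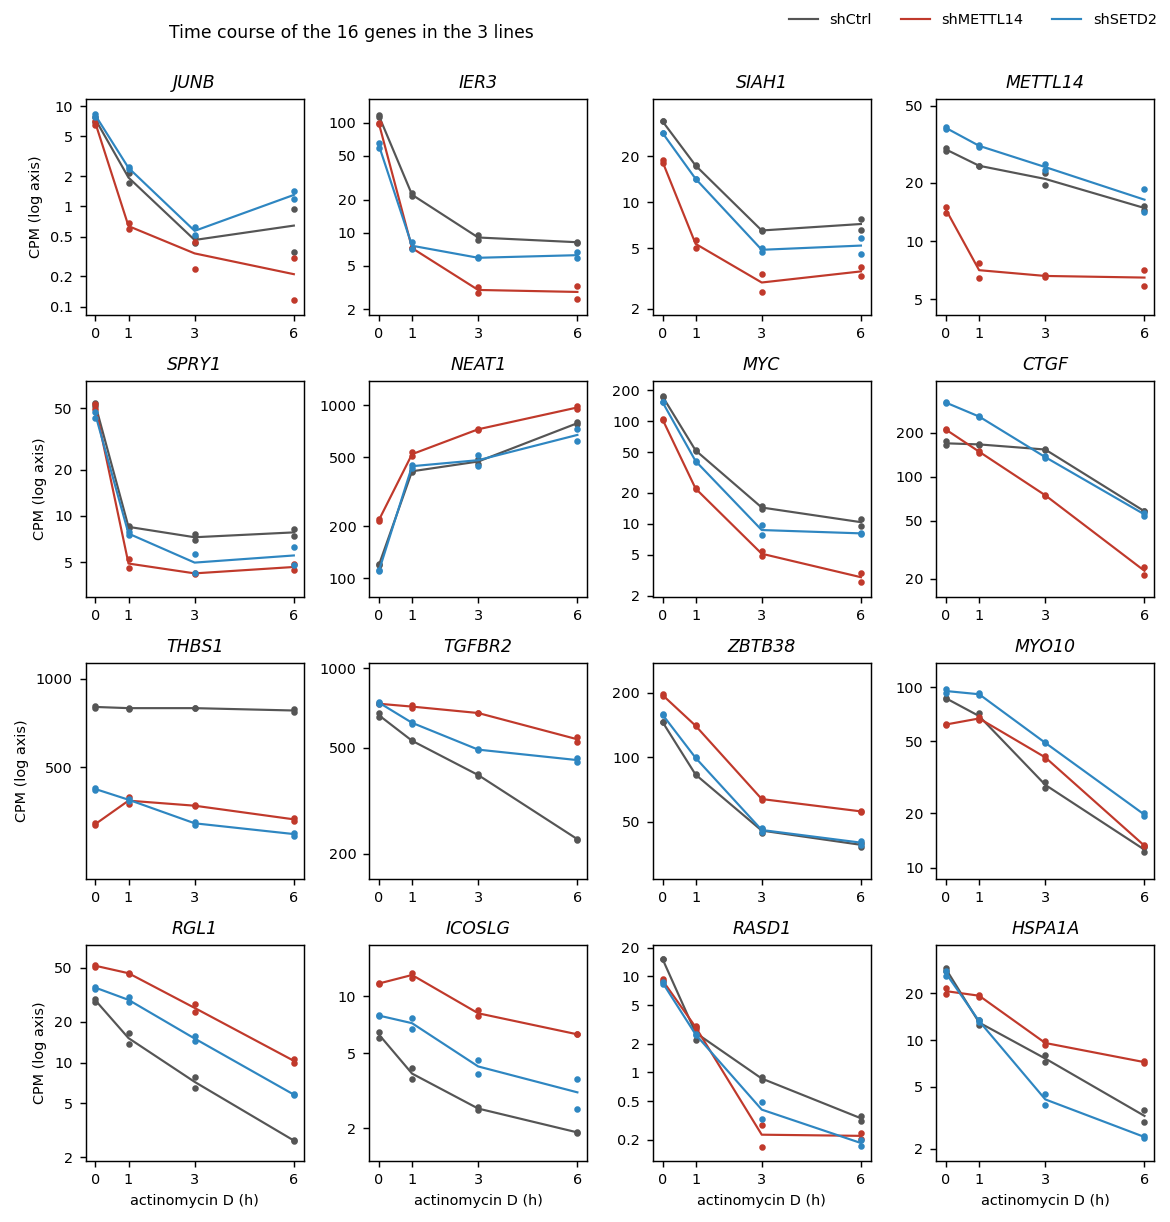
TMM-scaled CPM (log axes, scaled separately for each gene) at 0, 1, 3 and 6 h of actinomycin D in shCtrl, shMETTL14 and shSETD2; points are the 2 libraries and lines join the means. IER3 in shSETD2 is near shMETTL14 at 1 h (7.59 CPM) and near neither line at 0 h (61.9 CPM), while CTGF in shMETTL14 falls below both other lines by 3 h.

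Set against the other knockdown, 19 genes (0.128%) had a first-hour change in shMETTL14 that differed from that in shSETD2, 6 higher and 13 lower (0.0403% and 0.0873%), or 2 and 29 with scaling by library size alone. This comparison shares the shMETTL14 libraries with the one above. JUNB kept 29.98% in shSETD2, and its change in shMETTL14 differed from that by -1.66 log2 (adjusted p = 0.0144), beside -1.48 against shCtrl. SIAH1, SPRY1 and NEAT1 differed from shSETD2 by -0.79, -0.82 and -0.75 log2, and HSPA1A and THBS1 by 0.92 and 0.38 log2 (adjusted p = 0.0144, 0.0251, 0.000361, 0.000361 and 0.00209). For METTL14 the value was -0.73 log2 and did not pass (adjusted p = 0.0501). MYC, CTGF, RASD1, ICOSLG, RGL1, MYO10, ZBTB38 and TGFBR2 did not pass against shSETD2, with values of -0.33, -0.18, 0.18, 0.28, 0.11, 0.17, 0.19 and 0.22 log2.

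IER3 was the gene of the 16 whose first-hour change also differed between shSETD2 and shCtrl, a comparison in which 7 genes passed (0.047%; 0.0202% higher and 0.0269% lower). It kept 12.2% in shSETD2, between the 19.2% of shCtrl and the 7.37% of shMETTL14. The difference was -0.65 log2 for shSETD2 minus shCtrl and -0.73 log2 for shMETTL14 minus shSETD2 (adjusted p = 0.0307 and 0.0144). RGL1 had 0.62 log2 in shSETD2 minus shCtrl, which did not pass (adjusted p = 0.0781), and it kept 81.4% in shSETD2. HSPA1A kept 49.3% there, near the 45.4% of shCtrl, with 0.12 log2 (adjusted p = 0.999).

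The authors' deposited half-life table, made from the whole time course, lists 15 of the 16 genes, all but NEAT1. In the authors' deposited table the half-life was shorter in shMETTL14 for the lower genes it lists: 1.60 h in shCtrl and 1.19 h in shMETTL14 for IER3, 1.54 and 1.18 h for JUNB, 2.42 and 1.83 h for SPRY1, 1.42 and 1.07 h for MYC, 3.03 and 1.51 h for CTGF, 2.28 and 2.13 h for SIAH1, and 4.38 and 3.69 h for METTL14. The median over the 7772 genes of the authors' deposited table was itself shorter in shMETTL14, at 4.31 h against 6.02 h. A shorter value was thus not particular to these genes, and the share of all genes with a shorter value was not counted. Of the higher genes, the authors' deposited table gives a longer half-life in shMETTL14 for HSPA1A (1.81 and 2.48 h), RGL1 (1.60 and 1.90 h), ICOSLG (2.94 and 3.31 h), MYO10 (1.83 and 1.91 h) and TGFBR2 (3.09 and 4.93 h). It gives a shorter one for RASD1 (1.11 and 0.967 h), ZBTB38 (2.72 and 2.30 h) and THBS1 (12.8 and 7.41 h) in the same columns of the authors' deposited table. For IER3 in shSETD2 the authors' deposited table gives 1.83 h, longer than in shCtrl or shMETTL14, although IER3 kept less in shSETD2 than in shCtrl after the first hour. These half-lives come from the same libraries and carry no error in the table.

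Motifs were counted on the transcribed strand of 1 GENCODE 29 transcript for each gene, and most were present in lower and higher genes alike. The pentamer ATTTA, the core of AU-rich elements, was in the 3′UTR of all 7 lower and all 8 higher genes with an annotated 3′UTR, and in 68.5% of the 12576 3′UTRs of genes tested. Its median density was 3.81 per kb in the lower and 2.52 per kb in the higher genes, against 1.53 per kb for all. IER3 had 6 copies in 737 bases and JUNB 2 in 500 bases. The longer form ATTTATTTA, which contains ATTTA, was in 0 of the 7 lower genes and in 1 of the 8 higher, RGL1, against 6.74% of all. GGACT was in the 3′UTR of 5 of the 7 lower genes (IER3, JUNB, SPRY1, METTL14 and MYC) and of 7 of the 8 higher genes, all but HSPA1A, against 58.1% of all, and the 3′UTRs of the higher genes were longer, with a median of 2387 bases against 1049 in the lower genes and 1058.5 in all. Among all genes tested with a 3′UTR over 2000 and up to 4000 bases, GGACT was in 86.5% and ATTTA in 95.2%, and with one over 1000 and up to 2000 bases in 68.6% and 82.95%. Over the whole transcript GGACT occurred in 7 of the 8 lower genes, with 0 sites in CTGF, in all 8 higher genes and in 88.8% of all. IER3 had 4 sites in 1244 bases and NEAT1 19 in 22743 bases.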

How the data were processed

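Counts per gene were deposited by the authors, and cutadapt, TopHat and HTSeq 0.6.1p1 with the GRCh37 build were used, per the submitters' processing notes; their order, settings and use of strand were not stated in the labels or headers. RPKM values in the same deposited table equal the counts divided by total and length. Half-lives in hours were deposited by the authors as a separate table, made from the whole time course by a formula the labels do not give.

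Of 34618 entries, 14887 passed edgeR's filterByExpr over the 12 groups (9318 had no count). TMM factors and 1 robust quasi-likelihood fit (edgeR 4.0.16, R 4.3.3) to the 24 libraries, with 12 residual degrees of freedom and no replicate block, gave each contrast, with Benjamini-Hochberg adjustment over all genes and a threshold of 0.05; every adjusted p printed without another tool's name is from this test. Over all genes, deviations of libraries with the same replicate number correlated between -0.026 and 0.053 among the groups of the first-hour comparison. This check covered neither the other groups nor single genes, so it does not settle whether the replicate numbers pair the libraries.

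Named were METTL14, SETD2, up to 10 genes each way past the test with at least 5 CPM in a group and 1 sign in all 16 choices of libraries, and from each of 34 lists up to 3 members past the test or else the member with the smallest p. Genes outside that rule are marked where they appear or are overlapping, paralogous or same-complex partners. The members and lists were chosen with earlier results of these data known. Among the symbols 29 had turned into day numbers, and 186 entries shared a symbol. Motifs came from GENCODE 29 (GRCh38), matched by gene identifier for 14515 genes. Gene positions in the text are those of the deposited table. Alternatives were RLE factors, library size alone, other filters, DESeq2 1.42.0, limma 3.58.1 on log2(RPKM + 0.1) and log2(RPKM + 1), the replicate block, fits to the compared groups and leaving out each library.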

Additional observations from a re-analysis of the deposited data

Results flagged for a closer look

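Each value here is a difference in log2 change between 2 lines that passed the edgeR test of the difference itself at an adjusted p under 0.05. For the first hour, shMETTL14 minus shCtrl, these were JUNB (-1.48), IER3 (-1.38), SIAH1 (-0.83), METTL14 (-0.75), SPRY1 (-0.75), NEAT1 (-0.53), MYC (-0.49), CTGF (-0.48), THBS1 (0.28), TGFBR2 (0.28), ZBTB38 (0.34), MYO10 (0.44), RGL1 (0.74), ICOSLG (0.84), RASD1 (0.92) and HSPA1A (1.04).

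For 1 to 3 h, again shMETTL14 minus shCtrl, the named genes were CTGF (-0.88), PIM1 (-0.56), TGFBR2 (0.35), MYO10 (0.55) and RASD1 (-2.13). PIM1, a growth-promoting kinase gene, had a first-hour difference of -0.28 log2 that did not pass (adjusted p = 0.571). At 3 h RASD1 was at 0.225 CPM in shMETTL14.

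For the first hour in shMETTL14 minus shSETD2 the named genes were JUNB (-1.66), IER3 (-0.73), DDIT4 (-1.14), SIAH1 (-0.79), SPRY1 (-0.82), NEAT1 (-0.75), NFKBIA (-0.59), ID1 (-0.54), THBS1 (0.38) and HSPA1A (0.92). ID1, an inhibitor of helix-loop-helix transcription factors, had -0.26 log2 against shCtrl, which did not pass (adjusted p = 0.592). Groups of 2 libraries were not examined for a library far from the others.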

How the results depend on the processing

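None of the named genes' first-hour differences past the test changed sign under any alternative. The count of genes with a different first-hour change between shMETTL14 and shCtrl, 16 as reported, was 41 with no filter, 458 with the 8 libraries alone, 359 with those and the 24-library factors (chosen after seeing the data), 45 with the replicate block, 46 with DESeq2, 5 with limma on log2(RPKM + 0.1) and 2 to 6 with a library left out; it was 15 with RLE factors, 13 with library size alone, 14 with the stricter filter and 16 with limma on log2(RPKM + 1), of which 15, 10, 14 and 5 were among the 16 reported. The estimated variation between libraries of a group, which may be technical, was 5.04% in the fit to 24 libraries and 2.69% in the fit to 8 with the 24-library factors. All 16 were called with the block, but whether the replicate numbers pair the libraries was not established. For 1 to 3 h the count of 52 became 110 with the compared groups alone, 28 with limma on log2(RPKM + 0.1) and 19 to 27 with a library left out. Against shSETD2 the count of 19 became 31 with library size alone, 55 with no filter, 43 with the stricter filter, 50 with the compared groups alone, 65 with the replicate block, 52 with DESeq2, 6 and 46 with limma on log2(RPKM + 0.1) and log2(RPKM + 1), and 5 to 7 with a library left out. Leaving out a library gave 2610 to 3047 for the change in shCtrl, 3587 to 4771 in shMETTL14, 6248 to 6425 for the lines at 0 h and 5761 to 6079 at 1 h. Depth limits JUNB and ZFP36, at under 20 counts in shMETTL14 at 1 h, and RASD1 there at 3 h, with 7 and 5.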
